A study of Atriplex prostrata and Atriplex rosea and Atriplex prostrata x Atriplex rosea with 87 samples.

Results

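The genes described here are 10 regulators of the stomatal lineage, the cell lineage of the leaf epidermis that ends in a pair of guard cells. They were chosen by Arabidopsis locus identifier: SPCH (AT5G53210), MUTE (AT3G06120), FAMA (AT3G24140), TMM (AT1G80080), EPF1 (AT2G20875), EPF2 (AT1G34245), SDD1 (AT1G04110), ERL1 (AT5G62230), ICE1 (AT3G26744) and BASL (AT5G60880). Of the 10, 8 are rows of the deposited table of 21976 loci. Of these 8, 7 had counts and BASL had none. All 7 passed the filter on low counts, which left 14779 loci for testing. ERL1 and ICE1 are not analysed here.

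In Arabidopsis, protodermal cells enter the lineage by an asymmetric division that needs the transcription factor SPCH. The smaller daughter, the meristemoid, divides again until MUTE ends these divisions and turns it into a guard mother cell, and FAMA then acts at the last, symmetric division and in guard cell fate. ICE1 is the dimer partner of each of these factors. Secreted peptides of the EPF family are perceived by ERECTA family receptor kinases together with the receptor-like protein TMM, and a kinase cascade passes the signal to SPCH. These roles come from Arabidopsis and are given as background for the loci named.

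RNA sequencing along leaf development was used to compare leaves of the C3 plant Atriplex prostrata with those of the C4 plant Atriplex rosea. Both were untreated plants from growth chambers with 17 h of light at 27 °C and nights at 22 °C. Each species had 24 libraries in 8 groups of 3, matched by leaf plastochron index, which expresses how far a leaf has developed and not its length. Whole leaves were 1 mm long (index -1.3), 5 mm (index -0.7) or 7.5 mm (index -0.35, leaf 9 and leaf 10 as separate groups). Longer leaves were cut into a bottom and a top part. At index 0.3 they measured 15 mm in prostrata and 11 mm in rosea, and at index 0.8 they measured 18 mm and 13 mm, so matched groups of older leaves differ in length. The labels do not say whether replicates came from separate plants, so p-values measure only the spread between these samples. That spread was estimated for each locus over all 48 libraries together, not within the groups compared. Replicates differed far more in some groups than in others. Chi-square per degree of freedom was 1.20 to 2.18 between prostrata 1 mm replicates and 20.9 to 100.4 between rosea 13 mm bottom replicates.

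The 48 libraries held between 7647689 and 15360702 counts each. Counts of both species stand for reads assigned to Arabidopsis loci, so a difference between species at 1 stage can include a difference in how well the reads match, which was not tested. A change with age within a species compares a locus with itself. Reads were 100 or 150 bp long, and the length used for each library is not given here. Whether matching also differed between ages was not tested. In bulk leaves, fewer cells of a type and less RNA per cell cannot be told apart. Some libraries of leaf parts stood apart from their labels. By correlation over all loci, 7 of the 24 libraries of leaf parts were closer to the other part at the same index than to their own. Among these were all 3 prostrata 15 mm bottom libraries and replicate 3 of the rosea 13 mm bottom. Prostrata 15 mm bottom replicate 1 and top replicate 1 differed least of the library pairs compared (chi-square per degree of freedom 1.14). For many calls that changed without such a library, or without both members of that close pair, the value without them is given. Not every call gained in this way is named. Calls between parts numbered 6 without rosea 11 mm top replicate 3 and 10 without rosea 13 mm bottom replicate 3.

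SPCH, the factor that starts the lineage, had its highest mean in 5 mm leaves of both species, at a higher level in rosea. Its highest mean over the 5 ages was only 1.87 times its lowest in prostrata, against 6.32 times in rosea. In prostrata it had 125, 107 and 111 counts at 1 mm, and 200, 190 and 180 at 5 mm. In rosea it had 127, 148 and 133 counts at 1 mm, and 308, 504 and 477 at 5 mm. The libraries of the species lay close together at 1 mm and far apart at 5 mm, where every rosea library was above every prostrata library.

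On the CPM scale (counts relative to library totals adjusted by TMM, the trimmed mean of M-values) SPCH at 5 mm stood at 17.3 ± 1.11 in prostrata and 41.8 ± 3.70 in rosea (SD, n = 3). Its log2 fold change, rosea against prostrata, was 1.27 ± 0.42 (SE), with an adjusted p of 0.0111 in edgeR's quasi-likelihood test with Benjamini-Hochberg adjustment. The word called is used here for loci with both an adjusted p below 0.05 and a change of 1 or more on the log2 scale, up or down. SPCH was also called higher in rosea in 7.5 mm leaf 10 (log2 fold change 1.38 ± 0.42, adjusted p = 0.00674) and leaf 9 (1.09 ± 0.42, adjusted p = 0.0278). The call in leaf 9 was lost with library totals in place of TMM (0.91, adjusted p = 0.0923). It was also lost without prostrata replicate 1 or 2, or without rosea replicate 1 or 3 (0.89 to 1.08, adjusted p 0.066 to 0.113).

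At 7.5 mm the rosea libraries were uneven for SPCH. They held 354, 233 and 532 counts in leaf 9, and 450, 199 and 487 in leaf 10. The lowest were the library with 233 counts in leaf 9 and the one with 199 in leaf 10. These libraries, replicate 2 of each leaf, also stood apart over all loci. Chi-square per degree of freedom was 17.8 to 40.2 in replicate pairs with them, and 4.58 and 5.22 in pairs without. Each had the highest summed photosynthesis markers of its leaf (13550 and 12227 CPM) and the lowest summed division markers (375 and 418 CPM). Leaf 9 libraries were matched to labels only as a group, so their replicate numbers are those of the deposited columns. The prostrata libraries held 173, 195 and 219 counts in leaf 9, and 126, 184 and 202 in leaf 10, and none of them reached the lowest rosea library of its leaf on the CPM scale.

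In older leaves SPCH was not called between the species, with log2 fold changes of -0.29 ± 0.44, -0.20 ± 0.50, -0.43 ± 0.44 and -1.17 ± 0.61 from the bottom part at index 0.3 to the top part at index 0.8 (adjusted p 0.102 to 0.772). At index 0.3 prostrata had 97, 231 and 127 counts in the bottom part, and rosea had 124, 77 and 186. At index 0.8 prostrata had 94, 154 and 160 in the bottom part, and rosea had 87, 284 and 16. These ranges overlap, and replicate 3 of the rosea 13 mm bottom was the lowest by far. From 7.5 mm to index 0.3, as the mean of both parts, SPCH fell by 2.00 ± 0.32 on the log2 scale in rosea (adjusted p = 3.54e-06), while its value in prostrata was -0.53 ± 0.32 (adjusted p = 0.154). The step from 1 to 5 mm in prostrata had 0.90 ± 0.44 (adjusted p = 0.26), and no age contrast of SPCH was called in that species.

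**Figure D1:**
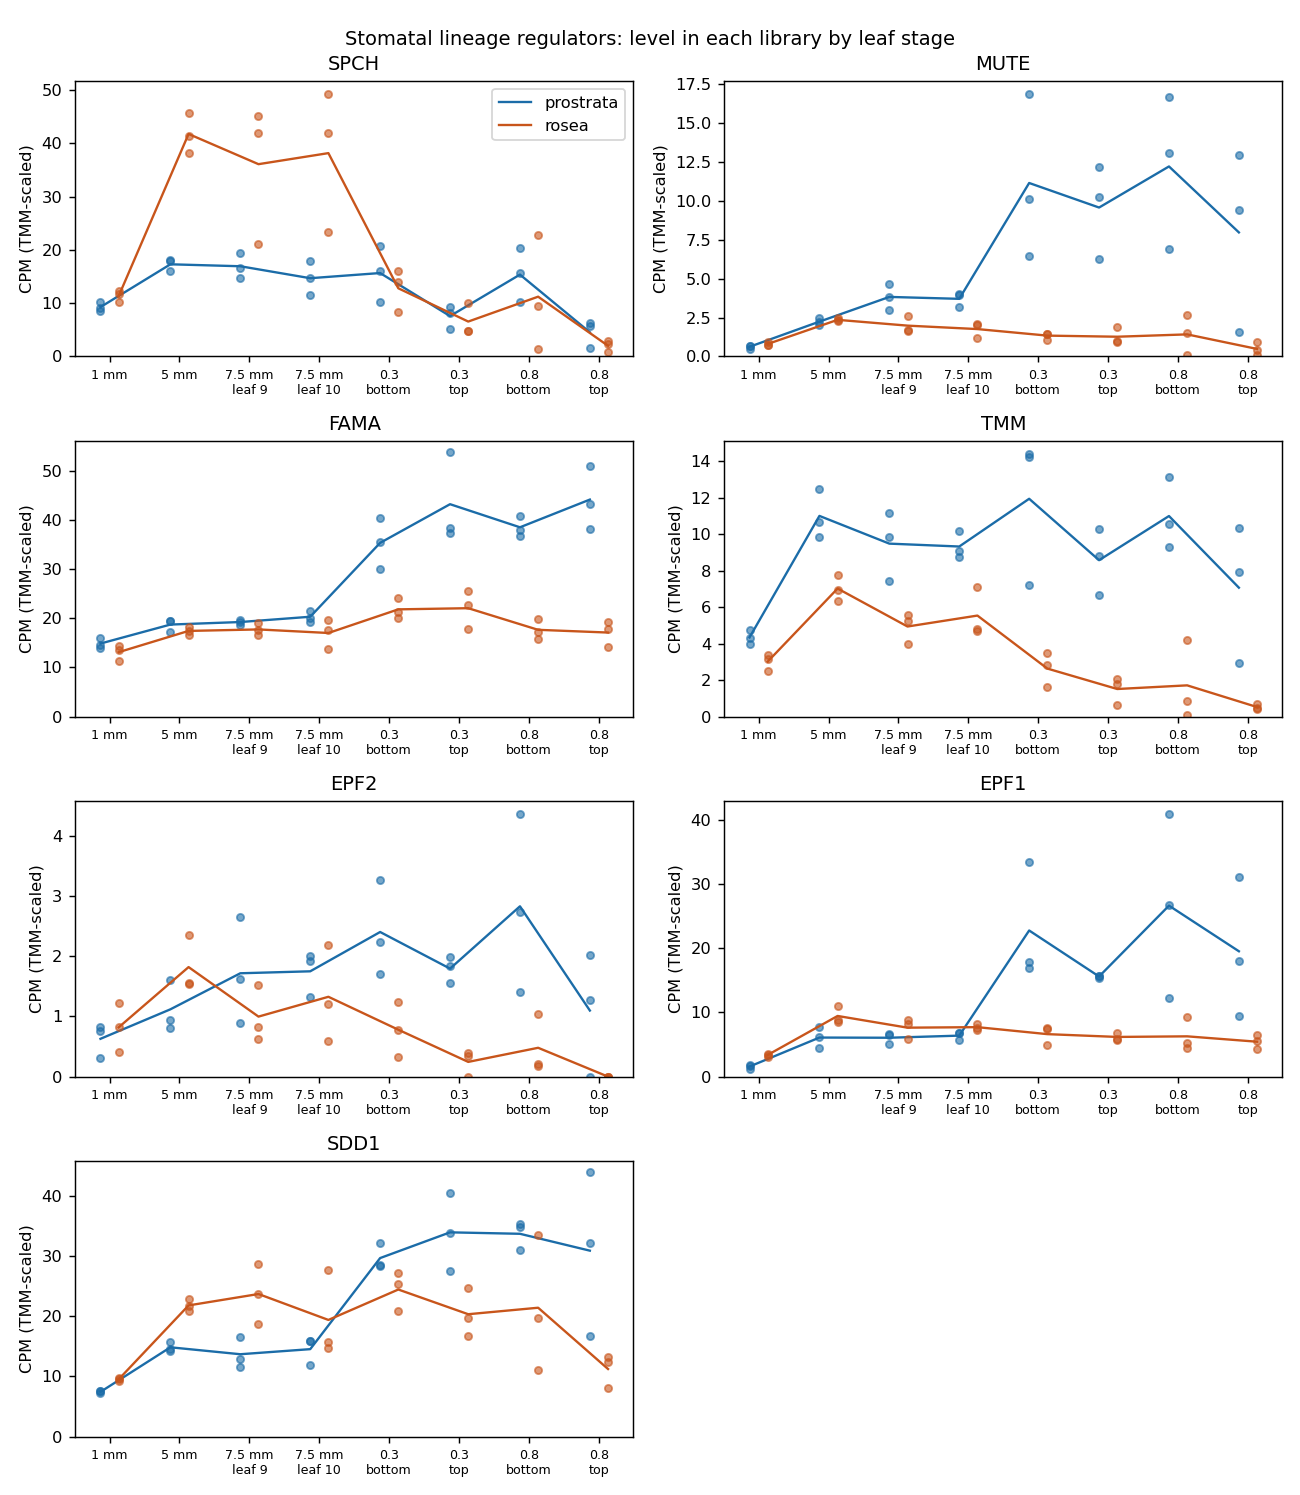
Level of each of the 7 detected genes in each library (points) and group mean (lines), in TMM-scaled CPM on a linear axis, by stage, for prostrata (blue) and rosea (orange), with 3 libraries per group. Stages 0.3 and 0.8 are leaf plastochron indices with bottom and top parts. SPCH is higher in rosea at 5 and 7.5 mm, and MUTE, TMM, EPF1 and FAMA are higher in prostrata at indices 0.3 and 0.8.

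MUTE, which ends the divisions of the meristemoid, showed the widest gap between the species among the genes with counts in every group, and showed it in older leaves. At 1 mm it was barely detected, with 6, 8 and 9 counts in prostrata and 8, 11 and 10 in rosea. At 5 mm it had 28, 21 and 25 counts in prostrata and 19, 27 and 26 in rosea. The species overlapped at 5 mm, and their log2 fold change there was 0.07 ± 0.52 (adjusted p = 0.924).

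From there the species parted. In 7.5 mm leaf 9 prostrata had 55, 35 and 43 MUTE counts and rosea had 22, 19 and 19. Leaf 10 had 44, 49 and 36 in prostrata, and 19, 17 and 14 in rosea. Rosea was lower without overlap in both, but not called, at -0.97 ± 0.50 and -1.10 ± 0.52 (adjusted p = 0.101 and 0.0765). In the bottom part at index 0.3, prostrata had 61, 113 and 134 MUTE counts and rosea had 13, 10 and 17. At index 0.8 the bottom part held 64, 99 and 171 in prostrata, and 14, 33 and 1 in rosea. The top part at that index held 11, 70 and 152 in prostrata, and 8, 1 and 5 in rosea. Every rosea library stayed under every prostrata library of its group on the CPM scale, by little in the last case, where prostrata replicate 1 was low. MUTE was called lower in rosea in all 4 groups of older leaf parts, with log2 fold changes of -3.03 ± 0.50, -2.88 ± 0.52, -3.08 ± 0.49 and -4.07 ± 0.61 in the order bottom and top at index 0.3, then bottom and top at index 0.8. The adjusted p-values lay between 5.78e-07 and 1.64e-05.

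Within prostrata MUTE rose from 7.5 mm to index 0.3 (log2 fold change 1.45 ± 0.31, adjusted p = 0.000109). Over the whole course, 1 mm to index 0.8, its log2 fold change was 3.99 ± 0.51 (adjusted p = 2.01e-08). In rosea the same contrasts gave -0.47 ± 0.43 (adjusted p = 0.396) and 0.05 ± 0.68 (adjusted p = 0.957). The step from 1 to 5 mm was large in both species, at 1.83 ± 0.63 in prostrata and 1.54 ± 0.61 in rosea. It was not called in either (adjusted p = 0.086 and 0.0567), where DESeq2 called both (adjusted p = 0.033 and 0.0253). The step in rosea was also called without the 2 close prostrata 15 mm libraries (1.57, adjusted p = 0.0441) and in the fit of rosea alone (1.58, adjusted p = 0.0282).

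FAMA, which acts at the last step of the lineage, was present from the smallest leaves on. Its highest mean over the 5 ages was 2.78 times its lowest in prostrata and 1.67 times in rosea, against 16.7 and 2.94 times for MUTE. At 1 mm prostrata had 171, 189 and 191 counts and rosea had 148, 174 and 150. At index 0.8 prostrata had 379, 288 and 377 in the bottom part, and rosea had 147, 248 and 195. In the top part prostrata had 271, 323 and 598, and rosea had 171, 125 and 208. The species were close in young leaves and did not overlap, on the CPM scale, in any part of older leaves.

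FAMA was called lower in rosea at index 0.8, in the bottom part (log2 fold change -1.12 ± 0.15, adjusted p = 3.59e-08) and in the top part (-1.37 ± 0.15, adjusted p = 4.70e-10). At index 0.3 its log2 fold changes of -0.69 ± 0.14 and -0.97 ± 0.14 had adjusted p-values of 0.000111 and 6.68e-07 but missed the fold threshold. The second of these, in the top part, was called with library totals (-1.12) and without the 2 close prostrata 15 mm libraries (-1.09, adjusted p = 7.59e-07). In prostrata FAMA rose by 1.47 ± 0.13 on the log2 scale from 1 mm to index 0.8 (adjusted p = 4.17e-12), and by 0.93 with library totals, which is under the threshold. The value in rosea was 0.41 ± 0.13 (adjusted p = 0.00686), and also under it.

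Counts of a later factor relative to an earlier one in the same library do not depend on the library's scaling. Over the 3 libraries of a group, prostrata had 6.71 MUTE counts per 100 SPCH counts at 1 mm, 13.0 at 5 mm, and 22.7 and 25.2 in leaves 9 and 10 at 7.5 mm. In older leaves it had 67.7 and 128 in the bottom and top at index 0.3, and 81.9 and 186 at index 0.8. In rosea the same ratio was 7.11 at 1 mm, 5.59 at 5 mm, and 5.36 and 4.40 at 7.5 mm. It then stood at 10.3 and 19.3 at index 0.3, and at 12.4 and 23.0 at index 0.8. The libraries of the species overlapped at 1 mm, and at every later stage each prostrata library was above each rosea library. On the log2 scale, with 0.5 added to each count, the ratio in prostrata went from -3.83 ± 0.39 at 1 mm to 0.58 ± 0.59 in the top part at index 0.8, and in rosea from -3.76 ± 0.13 to -2.13 ± 0.74 (SD, n = 3). These ratios describe changes with stage and say nothing of the relative amounts of the transcripts, since the loci differ in length and in how well reads match.

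For FAMA against SPCH the gap was in young leaves. Prostrata had 108 FAMA counts per 100 SPCH counts at 5 mm and rosea had 41.3, with no overlap between their libraries. In the top part at index 0.8 prostrata had 954 and rosea 826, and their libraries overlapped.

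**Figure D2:**
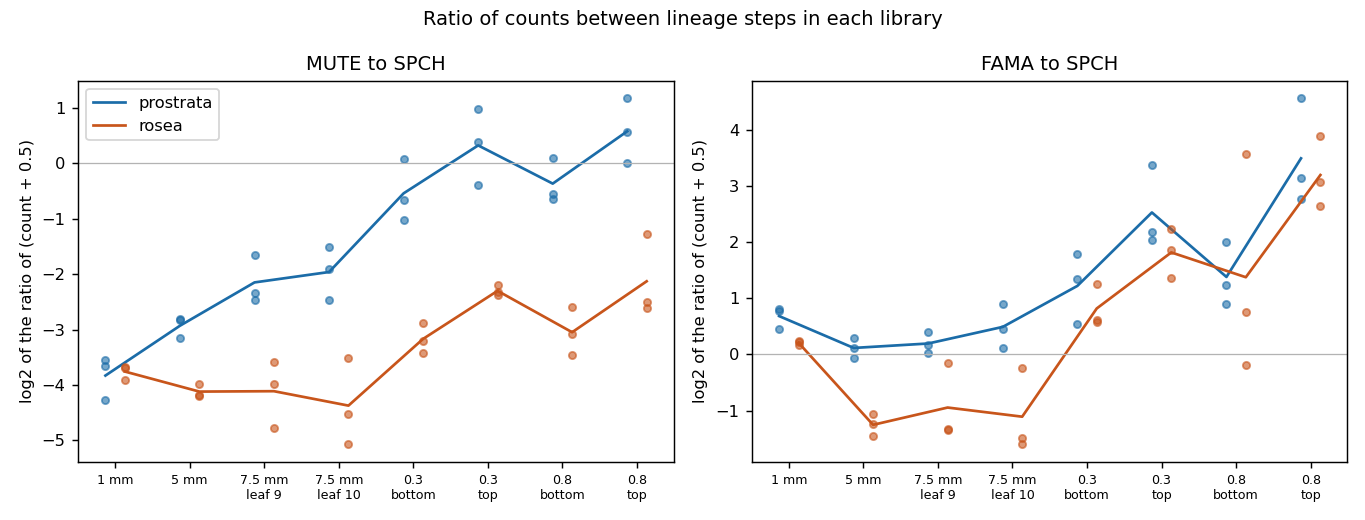
Log2 ratio of MUTE to SPCH counts (left) and of FAMA to SPCH counts (right) in each library (points), with 0.5 added to each count, and the mean of 3 libraries per group (lines), by stage and species. The MUTE to SPCH ratio starts at -3.83 in prostrata and -3.76 in rosea and ends, in the top part at index 0.8, at 0.58 and -2.13.

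TMM, the receptor-like protein that works with the ERECTA family, was lower in rosea in older leaves. At 1 mm it had 58, 47 and 56 counts in prostrata and 37, 38 and 33 in rosea, and at 5 mm it had 140, 104 and 120 against 56, 86 and 73. In the bottom part at index 0.3 it had 68, 161 and 113 in prostrata and 25, 15 and 40 in rosea. In the top part at index 0.8 it had 21, 59 and 121 in prostrata, and 6, 4 and 5 in rosea. On the CPM scale the rosea libraries lay below the prostrata libraries at all 8 stages. The difference was called in the older parts, with log2 fold changes of -2.16 ± 0.41 and -2.46 ± 0.47 at index 0.3 and -2.61 ± 0.43 and -3.79 ± 0.56 at index 0.8 (adjusted p 5.13e-07 to 3.76e-05). At 1 and 5 mm it was -0.53 ± 0.42 and -0.65 ± 0.37 and not called (adjusted p = 0.324 and 0.142). In 7.5 mm leaf 10 it was -0.75 ± 0.38 (adjusted p = 0.0972). In 7.5 mm leaf 9 it was -0.95 ± 0.38 (adjusted p = 0.0365), under the fold threshold. The gene TMM was called in leaf 9 with library totals in place of the TMM scaling (-1.13, adjusted p = 0.0239).

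EPF2 and EPF1 are secreted peptides that limit stomatal development, EPF2 at entry into the lineage and EPF1 later, when it spaces stomata. EPF2 was the rarest of the genes detected. In 5 mm leaves it had 18, 10 and 9 counts in prostrata and 19, 17 and 18 in rosea, and the groups overlapped in CPM. In the top part at index 0.3 prostrata had 11, 14 and 18 counts, and rosea had 0, 3 and 4. In the top part at index 0.8 prostrata had 0, 15 and 15 counts, and rosea had 0 in all 3 libraries. Against a floor of 3 counts over that group, EPF2 was at least 11.2-fold lower in rosea there (adjusted p = 0.000399), with 1 prostrata library at 0 as well. In the other older parts the log2 fold change was -1.60 ± 0.59 and -2.74 ± 0.78 at index 0.3 and -2.43 ± 0.61 in the bottom part at index 0.8 (adjusted p 0.00104 to 0.0218). The first of these, in the bottom part at index 0.3, was not called without prostrata replicate 3 (-1.35, adjusted p = 0.0883), rosea replicate 2 (-1.27, adjusted p = 0.0982) or rosea replicate 3 (-1.62, adjusted p = 0.054).

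EPF1 changed sides between the species with age. At 1 mm it had 23, 19 and 16 counts in prostrata and 39, 38 and 45 in rosea, and every rosea library was the higher. In the bottom part at index 0.3 it had 168, 190 and 266 in prostrata and 68, 45 and 85 in rosea. At index 0.8 the bottom parts had 114, 310 and 274, and 48, 115 and 50. In all 4 groups of older parts every prostrata library was the higher on the CPM scale, with prostrata replicate 1 at index 0.8 the closest to rosea. The log2 fold change was 1.10 ± 0.42 at 1 mm (adjusted p = 0.0339), and -1.77 ± 0.32, -1.34 ± 0.34, -2.06 ± 0.32 and -1.84 ± 0.33 in the older parts (adjusted p 1.26e-06 to 0.00108). The call at 1 mm was lost without any 1 of its libraries except prostrata replicate 1 (0.95 to 1.15, adjusted p 0.051 to 0.119) and with library totals (1.05, adjusted p = 0.0519).

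SDD1, a subtilisin-like protease that lowers stomatal density in Arabidopsis, was called between the species in 1 group only, the top part at index 0.8. At 1 mm it had 89, 89 and 98 counts in prostrata and 104, 119 and 121 in rosea. At index 0.8 it had 327, 234 and 357 in the bottom part of prostrata, and 182, 417 and 125 in that of rosea. The top part had 118, 239 and 514 in prostrata and 117, 71 and 145 in rosea. The rosea libraries were all higher in CPM at 1 and 5 mm and in 7.5 mm leaf 9. They overlapped with prostrata in leaf 10 and in the bottom part at index 0.8. In both parts at index 0.3 and the top part at index 0.8 they were all lower. The call in the top part at index 0.8 was at a log2 fold change of -1.47 ± 0.28 (adjusted p = 2.61e-05). Under the fold threshold were 0.79 ± 0.27 in leaf 9 (adjusted p = 0.0138) and -0.74 ± 0.27 in the index 0.3 top (adjusted p = 0.0206). So was -0.65 ± 0.26 in the index 0.8 bottom (adjusted p = 0.0338). BASL, the polarity protein of the asymmetric division, had 0 counts in all 48 libraries, which allows a level of up to 0.00612 CPM over the 490103964 counts, for counting error only. Whether its reads match the Arabidopsis locus was not tested.

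Read by stage, the calls between the species thus moved from higher SPCH in young rosea leaves to lower MUTE, TMM, EPF1 and EPF2 in older ones. Without being called there, TMM was already lower in rosea without overlap in young leaves, and MUTE was at 7.5 mm. At 1 mm 1 of the 7 genes was called (EPF1, higher in rosea), against 16.4% of all loci tested, with 8.49% higher. At 5 mm, and in 7.5 mm leaves 9 and 10, it was also 1 of 7 (SPCH each time), against 20.3%, 21.6% and 19.7% of all loci in either direction and 10.4%, 11% and 9.57% higher. These shares are near the background. In the bottom and top at index 0.3, 4 of 7 were called, all lower in rosea, against 23.5% and 21.9% of all loci in either direction and 13.2% and 11.7% in that direction. In the bottom and top at index 0.8 it was 5 and 6 of 7, all lower, against 24.8% and 25.4% in either direction and 12.9% and 13.6% lower. DESeq2 called 7 in the last of these, adding SPCH (log2 fold change -1.16, adjusted p = 0.0471). Averaged over the 8 stages, MUTE (-1.84 ± 0.20), TMM (-1.74 ± 0.15) and EPF2 (adjusted p = 2.74e-06) were called lower in rosea, 3 of 7 against 19.9% of all loci and 10.3% lower.

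**Figure D3:**
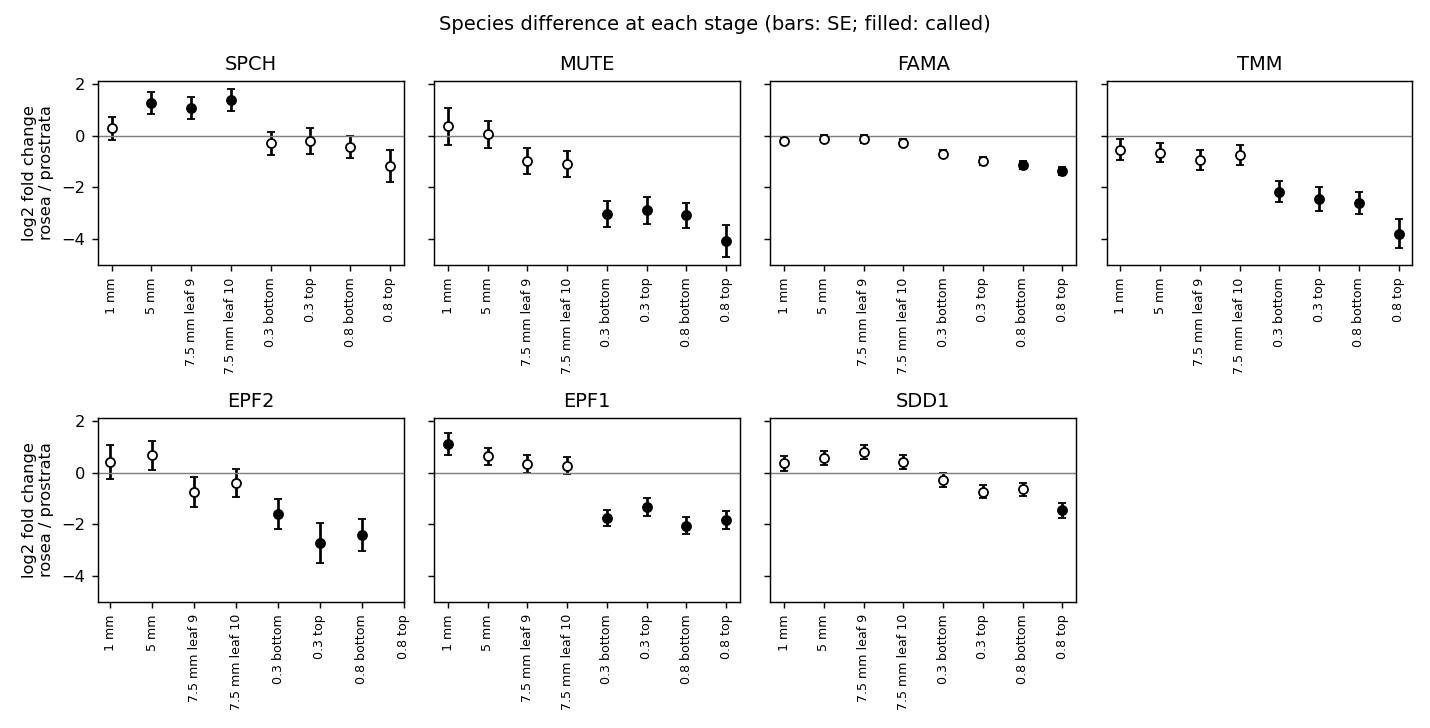
Log2 fold change of rosea against prostrata (y axis) with its SE (bars) by stage (x axis) for the 7 detected genes. Filled points passed an adjusted p of 0.05 and a log2 fold change of 1, and EPF2 in the top part at index 0.8 is left out because rosea had 0 counts. SPCH lies above 1 at 5 and 7.5 mm, and MUTE and TMM lie below -2 from index 0.3 on.

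Change with age differed between the species in most of these genes. From 1 mm to index 0.8, taken as the mean of both parts, 6 of 7 genes rose in prostrata, against 23.5% of all loci called and 15.2% called higher. They were MUTE (3.99 ± 0.51), EPF1 (3.85 ± 0.36), SDD1 (2.12 ± 0.26), EPF2 (1.49 ± 0.55), FAMA (1.47 ± 0.13) and TMM (1.04 ± 0.34), in log2 fold change with SE and adjusted p-values from 4.17e-12 to 0.0187. SPCH had -0.14 ± 0.40. In rosea none was called higher, and 3 of 7 were called lower, against 25.2% of all loci called and 10.3% called lower. They were TMM (-1.63 ± 0.45), SPCH (-1.23 ± 0.41) and EPF2 (adjusted p = 0.0035). EPF2 reached 0 counts in the top part, and that part alone was at least 8.11-fold below the level at 1 mm. The bottom part still held 2, 13 and 2 EPF2 counts, with a mean of 0.48 CPM against 0.82 CPM at 1 mm. SDD1 (0.71, adjusted p = 0.0135), EPF1 (0.80, adjusted p = 0.0312) and FAMA (0.41, adjusted p = 0.00686) were higher in rosea at index 0.8 than at 1 mm by less than the fold threshold. The call of SPCH in rosea was lost without replicate 3 of the 13 mm bottom (-0.94, adjusted p = 0.017).

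The smaller of the rises in prostrata depended on the scaling or on 1 library. With library totals, which moved the median of all loci by -0.58 in prostrata and by -0.75 in rosea, EPF2 had 0.96 (adjusted p = 0.128) and TMM 0.52 (adjusted p = 0.218). EPF2 was also not called without 1 mm replicate 3 (1.16, adjusted p = 0.108) or 18 mm top replicate 2 (1.25, adjusted p = 0.0667). TMM fell to or below the fold threshold without 1 mm replicate 2 (0.98), 18 mm bottom replicate 3 (1.00) or 18 mm top replicate 3 (0.86). MUTE, EPF1 and SDD1 kept their calls in each of these settings.

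The steps show when the courses parted. From 1 to 5 mm, EPF1 (1.95 ± 0.40, adjusted p = 0.00157) and TMM (1.34 ± 0.38, adjusted p = 0.0299) rose in prostrata, 2 of 7 against 1.87% of all loci in either direction and 0.663% higher. SDD1 in prostrata had 0.99 ± 0.29 (adjusted p = 0.0334), just under the fold threshold. In rosea SPCH (1.88 ± 0.43), EPF1 (1.49 ± 0.35), TMM (1.22 ± 0.41) and SDD1 (1.19 ± 0.28) rose, 4 of 7 against 6.67% and 3.89% higher, with adjusted p-values of 0.00116 to 0.024. The TMM calls were the weakest of these. In prostrata it was lost without any 1 of its 6 libraries (1.24 to 1.41, adjusted p 0.0623 to 0.12). In rosea it was lost without 1 mm replicate 1, 2 or 3 or 5 mm replicate 2 (1.10 to 1.32, adjusted p 0.0511 to 0.0866). With library totals TMM was lost in both species (1.19 and 0.97), as was SDD1 in rosea (0.94). The difference between the species in this step was called for 0 of 7 genes, against 1.06% of all loci, in edgeR and in DESeq2, with 0 of 7 at an unadjusted p under 0.05. For SPCH it was 0.98 ± 0.61 (adjusted p = 0.488).

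From 5 to 7.5 mm no gene was called in either species, by edgeR or DESeq2, and 0 of 7 had an unadjusted p under 0.05. Of all loci 0.731% were called in prostrata and 0% in rosea. From 7.5 mm to index 0.3, EPF1 (1.59 ± 0.23), MUTE (1.45 ± 0.31) and SDD1 (1.17 ± 0.19) rose in prostrata, 3 of 7 against 15.6% of all loci and 10.3% higher, and FAMA reached 0.98 ± 0.10 (adjusted p = 2.26e-10), just short of the fold threshold. FAMA was called there with DESeq2 (1.01), without the low-count filter (1.02), in the fit of prostrata alone (1.02) and without the 2 close 15 mm libraries (1.08). With library totals SDD1 had 0.86. In the same step SPCH, as given above, TMM (-1.35 ± 0.33, adjusted p = 0.000961) and EPF2 (-1.34 ± 0.53, adjusted p = 0.0368) fell in rosea, 3 of 7 against 7.88% of all loci and 2.65% lower. The EPF2 call was lost without any of 6 single libraries, which were leaf 9 replicate 3, leaf 10 replicate 1, 11 mm bottom replicates 2 and 3, and 11 mm top replicates 1 and 2 (-1.45 to -1.09, adjusted p 0.0517 to 0.136). From index 0.3 to 0.8, 0 of 7 genes were called in either species by edgeR or DESeq2, with 0 of 7 in prostrata and 5 of 7 in rosea at an unadjusted p under 0.05, and 0.0271% and 0.338% of all loci called.

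The difference between the species in the change from 7.5 mm to index 0.3 was itself tested, as an interaction, and called for 5 of 7 genes, all lower in rosea, against 7.98% of all loci in either direction and 5.11% lower. It was -1.92 ± 0.53 for MUTE, -1.85 ± 0.33 for EPF1, -1.48 ± 0.45 for SPCH, -1.46 ± 0.42 for TMM and -1.11 ± 0.27 for SDD1 (rosea minus prostrata, adjusted p 7.19e-05 to 0.0115). DESeq2 called 6 of 7, adding EPF2 (-1.64, adjusted p = 0.0402). Without the leaf 9 libraries MUTE (-1.86, adjusted p = 0.0576) and SDD1 (-0.92, adjusted p = 0.0566) were not called, and SDD1 was also lost without rosea leaf 10 replicate 2 (-0.94). From 1 mm to index 0.8, 6 of 7 genes were called, all lower in rosea, against 10.9% in either direction and 6.38% lower: MUTE with -3.94 ± 0.87, EPF1 with -3.05 ± 0.48, TMM with -2.67 ± 0.57, SDD1 with -1.41 ± 0.35, FAMA with -1.06 ± 0.18, and EPF2 (adjusted p = 0.00133). FAMA missed the fold threshold narrowly without prostrata 18 mm top replicate 3 (adjusted p = 8.96e-05) or rosea 1 mm replicate 2 (-0.99, adjusted p = 0.000298). For SPCH the value was -1.09 ± 0.59 (adjusted p = 0.173). From 5 to 7.5 mm and from index 0.3 to 0.8 the interaction was called for 0 of 7 genes in edgeR and DESeq2, with 0 and 2 at an unadjusted p under 0.05, against 0.00677% and 0% of all loci.

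As a share of its own summed level over the 5 ages, MUTE stood at 2.29% at 1 mm and 38.3% at index 0.3 in prostrata, against 11.0% and 17.9% in rosea, where its highest share, 32.3%, came at 5 mm. SPCH had its highest share at 5 mm in both, at 27.1% in prostrata, where none of its age contrasts was called, and 39.2% in rosea. In prostrata the highest means were at 5 mm for SPCH and TMM, at index 0.3 for MUTE and EPF2, and at index 0.8 for FAMA, EPF1 and SDD1. In rosea SPCH, MUTE, TMM, EPF1 and EPF2 all peaked at 5 mm, and FAMA and SDD1 at index 0.3. The steps from 5 to 7.5 mm and from index 0.3 to 0.8 were not called for any gene, so the order of neighbouring ages inside these pairs is within the error.

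**Figure D4:**
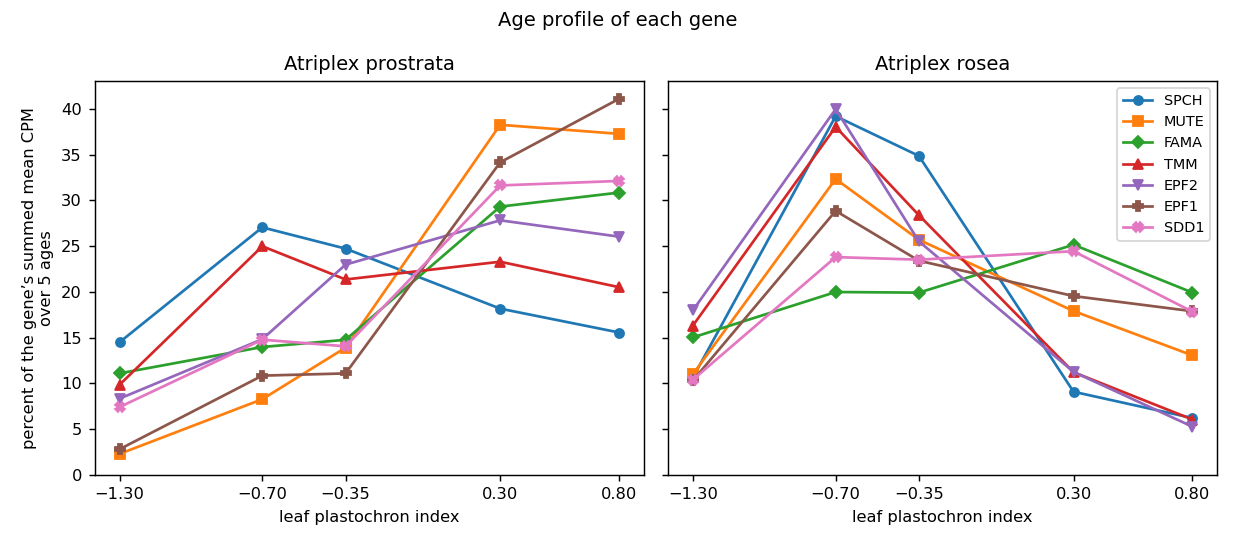
Percent of each gene's summed mean CPM over the 5 ages (y axis) against leaf plastochron index (x axis), with leaves 9 and 10 and the bottom and top parts averaged, for prostrata (left) and rosea (right). In prostrata MUTE reaches 38.3% at index 0.3, and in rosea 32.3% at 5 mm, beside SPCH.

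The bottom and top parts were compared at the same index, and leaf cells in general mature from the tip down. Averaged over both indices, SPCH was lower in the top part in both species. At index 0.8 prostrata had 94, 154 and 160 counts in the bottom and 11, 47 and 67 in the top, and rosea had 87, 284 and 16 in the bottom and 20, 8 and 33 in the top. The prostrata groups did not overlap. The rosea groups did, through replicate 3 of the bottom, whose SPCH level of 1.41 CPM was within the range of the top libraries. Averaged over both indices, SPCH was called lower in the top in prostrata (-1.38 ± 0.34, adjusted p = 0.0062) and in rosea (-1.70 ± 0.37, adjusted p = 0.0063). That is 1 of 7 genes in prostrata, against 1.22% of all loci and 0.785% lower. In rosea it is 2 of 7, with EPF2 (adjusted p = 0.0337), against 0.582% and 0.433% lower. DESeq2 called TMM there as well (-1.27, adjusted p = 0.0173).

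At index 0.8 alone SPCH was called in both species, as 1 of 7 in each. In prostrata it had -1.71 ± 0.50 (adjusted p = 0.0315), against 1.36% of all loci called and 0.683% lower, and in rosea -2.46 ± 0.55 (adjusted p = 0.021), against 0.92% and 0.67%. DESeq2 also called EPF2 in rosea at that index (adjusted p = 0.0198). At index 0.3 none was called, in edgeR or DESeq2, against 0% of all loci in prostrata and 0.0203% in rosea, with 2 of 7 and 0 of 7 genes at an unadjusted p under 0.05. The SPCH values there were -1.04 ± 0.47 and -0.95 ± 0.47. The species difference in the top against bottom contrast was called for 0 of 7 genes in edgeR and DESeq2, against 0.115% of all loci, with 2 of 7 at an unadjusted p under 0.05. For SPCH it was -0.32 ± 0.50.

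These part differences rested on few libraries. In the fit of rosea alone, SPCH at index 0.8 (-2.47, adjusted p = 0.0935) and EPF2 over both indices (adjusted p = 0.0515) were not called. Without rosea 13 mm bottom replicate 2, SPCH had -1.35 at index 0.8 (adjusted p = 0.571) and -1.15 over both indices (adjusted p = 0.0943) and was not called. Without rosea 13 mm bottom replicate 3, the library closer to the top part, the index 0.8 values were -2.98 for SPCH (adjusted p = 0.000122), -2.35 for TMM (adjusted p = 0.00699), -2.13 for MUTE (adjusted p = 0.0457) and -1.24 for SDD1 (adjusted p = 0.00247), all called. Without rosea 13 mm top replicate 2 SPCH at index 0.8 had -2.14 (adjusted p = 0.114). In prostrata SPCH at index 0.8 was lost without bottom replicate 2 or 3 or top replicate 1 or 2 (-1.96 to -1.35, adjusted p 0.05 to 0.153), while its mean over both indices kept its call without each library. EPF2 in rosea was lost without any of 8 single libraries (adjusted p 0.0646 to 0.266), 13 mm bottom replicate 2 among them. The other 7 were 11 mm bottom replicates 1 and 3, 11 mm top replicates 1 and 2, and 13 mm top replicates 1, 2 and 3.

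Markers of cell division varied between these libraries too. The summed level of the 6 division markers, of 8 listed, was 236, 348 and 107 CPM in the rosea 13 mm bottom libraries, the same order as SPCH at 9.40, 22.8 and 1.41 CPM. In the top libraries it was 164, 65.3 and 120 CPM, where SPCH had 2.26, 0.913 and 2.82 CPM, which is another order. In the prostrata 18 mm bottom it was 441, 636 and 431 CPM beside SPCH at 10.2, 20.3 and 15.6 CPM, where the highest library was the same and the order of the others was not. The prostrata 18 mm top had 253 to 389 CPM. The part of division markers in the SPCH results was not tested.

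**Figure D5:**
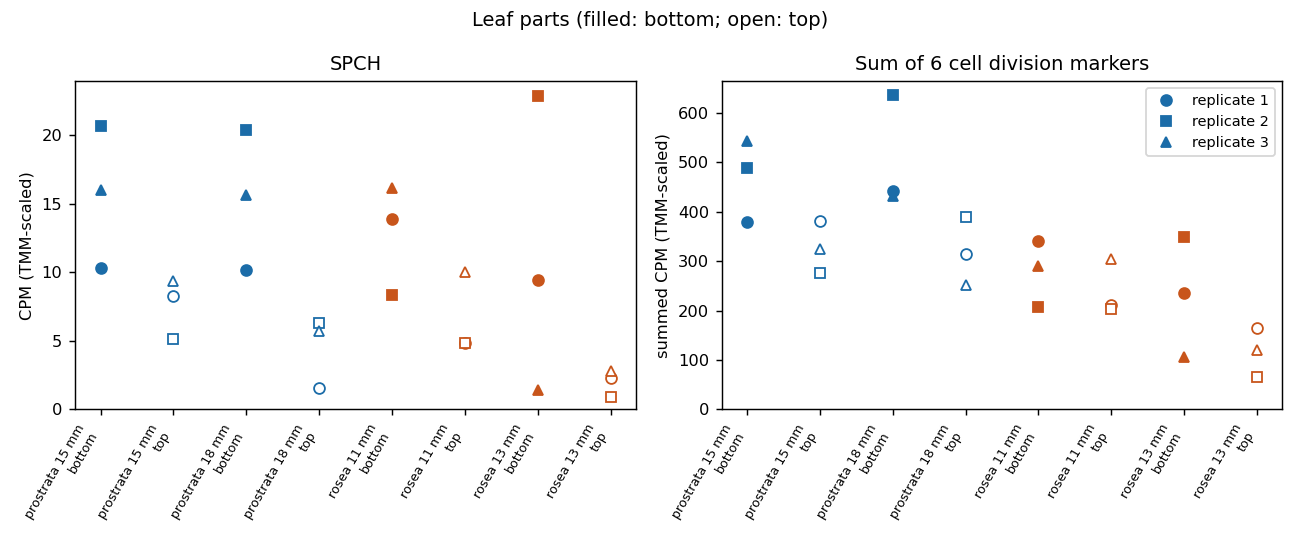
SPCH level (left) and summed level of 6 cell division markers (right), both in TMM-scaled CPM on linear axes, in each library of the bottom (filled) and top (open) parts, with symbols for replicate numbers. Replicate 3 of the rosea 13 mm bottom is at 1.41 CPM of SPCH and 107 CPM of division markers.

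Leaf 9 and leaf 10, both 7.5 mm long, differ in their position on the plant. In each species 0 of 7 genes were called between them, by edgeR or DESeq2, with 0 of 7 at an unadjusted p under 0.05 and 0% of all loci called. Values lay between -0.30 ± 0.27 for SDD1 in rosea and 0.39 ± 0.60 for EPF2 in rosea, so a difference as small as the threshold could not be told from none for the rarer genes.

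Of 18 other regulators of the lineage, 12 were tested. From 1 mm to index 0.8, 2 of 12 were called higher and 4 lower in prostrata, against 15.2% of all loci higher and 8.28% lower, with a list median of -0.67 (log2) against -0.03 for all loci. In rosea it was 1 higher and 4 lower, against 15% and 10.3% of all loci, with a median of -0.73 against -0.07. EPFL9 (AT4G12970), the peptide stomagen that promotes stomata and is made in the mesophyll in Arabidopsis, rose in both, by 4.18 ± 0.35 in prostrata and 1.51 ± 0.31 in rosea. Its interaction was -2.67 ± 0.45 (adjusted p = 2.21e-05).

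The receptor kinases ER and ERL2 fell in both species, with log2 fold changes of -2.12 ± 0.23 in prostrata and -3.69 ± 0.24 in rosea for ER, and of -3.59 ± 0.22 in rosea for ERL2, which fell by 2.00 ± 0.21 in prostrata. Counts of ERL2 were 15.8% to 21.3% of those of ER in prostrata libraries and 15.7% to 21.3% in rosea libraries, so these close paralogs moved together and are uncertain as single genes. EPFL4 and EPFL5, peptides of the same family as EPF1 that bind ERECTA family receptors, fell in both species as well, EPFL4 with -3.15 ± 0.39 and -1.92 ± 0.32 and EPFL5 with -3.18 ± 0.35 and -2.22 ± 0.36. Averaged over the 8 stages, rosea was higher in AGL16 (1.92 ± 0.12) and EPFL4 (1.06 ± 0.20) and lower in ER (-1.37 ± 0.10), ERL2 (-1.35 ± 0.09) and RBR1 (-1.09 ± 0.04), 5 of 12 against 19.9% of all loci, with a list median of -0.23. SCRM2, the close relative of ICE1 with overlapping function, was called in the interaction from 1 mm to index 0.8 only (-1.13 ± 0.14). In the kinase cascade, which includes YDA, MPK3 and MPK6, 0 of 10 tested loci, of 14 listed, were called from 1 mm to index 0.8 in either species by edgeR, against 23.5% and 25.2% of all loci, with medians of -0.35 and -0.32. Their values lay between -0.95 and 0.28 in prostrata and between -0.92 and 0.95 in rosea, under the fold threshold, though 7 and 8 of the 10 had an unadjusted p under 0.05 and the same numbers an adjusted p under 0.05.

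Markers of guard cells, the end product of the lineage, were measured in 9 of 11 listed loci. Their summed level at index 0.8 was 206 to 290 CPM in prostrata and 233 to 266 CPM in rosea, with overlapping ranges. Of the 9, 4 were called higher between 1 mm and index 0.8 in prostrata and 3 of 9 in rosea, against 15.2% and 15% of all loci. The anion channel SLAC1 rose by 5.92 ± 0.63 and 3.37 ± 0.44, and the potassium channel KAT2 by 1.28 ± 0.21 and 1.51 ± 0.22. The potassium channel GORK rose in rosea alone by the call (2.29 ± 0.23), with an interaction of 2.14 ± 0.29 (adjusted p = 8.91e-07). ALMT12, an anion channel, rose in prostrata by 3.98 ± 0.47 and had 5 counts in all rosea libraries together, and SCAP1, a transcription factor of guard cell maturation, had 425 counts in prostrata and 38 in rosea. Total counts were higher in rosea for GC1 (6757 in prostrata, 17482 in rosea) and SLAC1 (996 and 1471), and lower in rosea for the rest of the list. OST1 had the most counts of the list in both species (21451 and 18573), which weighs on the summed level.

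Division markers had a lower summed level in rosea in leaves up to 7.5 mm and in older leaf parts, with an overlap only in the top part at index 0.3. Their sum was 694 to 709 CPM in prostrata and 488 to 503 CPM in rosea at 1 mm, and 702 to 719 and 420 to 488 CPM at 5 mm. At 7.5 mm, leaves 9 and 10 together, it was 748 to 818 CPM in prostrata and 375 to 536 CPM in rosea, so the ranges did not overlap at these 3 ages. In the bottom part at index 0.3 the sum was 380 to 544 CPM in prostrata and 206 to 340 CPM in rosea. At index 0.8 it was 431 to 636 and 107 to 348 CPM in the bottom part, and 253 to 389 and 65.3 to 164 CPM in the top part. These ranges did not overlap either. In the top part at index 0.3 they did, at 277 to 381 CPM in prostrata and 203 to 305 CPM in rosea. From 1 mm to index 0.8, 1 of 6 was called lower in prostrata and 6 of 6 in rosea, against 8.28% and 10.3% of all loci. The epidermal identity genes HDG2 and PDF2, the tested 2 of 4 listed, fell in both species, with -1.21 ± 0.16 and -1.28 ± 0.16 in prostrata and -2.50 ± 0.16 and -2.61 ± 0.16 in rosea. The part of these marker changes in the results for the lineage genes was not tested.

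Among other leaf markers, 2 of 6 trichome loci were tested, of which GL2, a trichome and epidermis factor, fell in rosea (-1.36 ± 0.23). The meristem genes STM and KNAT1, 2 of 4 listed, fell in both species. All 3 photosynthesis markers, RBCS1A, RCA and BCA1, rose in both, and the cell type that holds them was not tested. These lists hold POLAR, CYCD7;1, TRY, CPC and CLV3 at 0 counts in all libraries.

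The loci whose profile was most like each gene's were found by Pearson correlation of log2(CPM + 0.5) over the 16 group means, which share libraries and scaling and are given as a description. For SPCH they were AT4G38260 (r = 0.96), AT2G30140, a UDP-glycosyltransferase (0.94), and calreticulin 1b, AT1G09210 (0.92). For MUTE the closest was AT1G02390, glycerol-3-phosphate acyltransferase 2 (0.96), for FAMA AT2G39010, an aquaporin of the plasma membrane (0.98), and for EPF1 AT5G13450, the delta subunit of the mitochondrial ATP synthase (0.97). For TMM it was AT3G18010, WUSCHEL related homeobox 1 (0.97), for EPF2 AT2G23540, a GDSL-like lipase (0.95), and for SDD1 AT4G26370, with a NusB domain (0.96). TMM itself was the third closest to EPF2 (0.93).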

How the data were processed

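CASAVA, DESeq2 and TAIR10 are named in the submitters' processing notes without versions. Aligner, counter and use of strand: not given in the sources used here. Raw read counts per Arabidopsis locus were deposited, so 1 Atriplex gene can be spread over paralogs. Of 60 count columns, 48 were matched to labels and 12 per-sample columns were not used. The oldest leaves (index 1.5) and the F1 hybrid were not analysed here, and 5 loci with shifted values were left out. The authors' log2 fold changes, other values of the deposited table, served only to check which letter marks the bottom part. Leaf 9 columns were matched as a group, so a replicate number of leaf 9 is that of its column and not that of a label.

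The fit used edgeR 4.0.16 under R 4.3.3, with 1 mean per group over 48 libraries, with TMM scaling (factors 0.653 to 1.31) and filterByExpr, and tested with the quasi-likelihood F test, adjusted by Benjamini-Hochberg over 14779 loci. The fit had 32 residual degrees of freedom. How its p-values behave where replicates differ far more in some groups than in others was not tested. SE is the absolute log2 fold change over the square root of F. Ages with 2 groups were averaged with equal weight. Alternatives were DESeq2 1.42.0, library totals, no filter, each library left out, a replicate block, and fits of 1 species. The labels do not say what replicate numbers share. Same-numbered bottom and top libraries deviated together in all 3 pairs only in prostrata at 18 mm (r 0.20 to 0.38). The main fit, with 1 mean per group, did not pair libraries by number in that contrast or in any other. Replicate numbers entered only the alternative fit with the replicate block, which was not limited to that contrast. Members and lists were chosen with earlier results of these data known. Named loci beyond the members were those called with the largest changes in each list, up to 4, and the closest profiles of each member, with other loci named after their values were seen.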

Additional observations from a re-analysis of the deposited data

Results flagged for a closer look

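The change with age differed between prostrata and rosea, by a test of the difference itself (edgeR's quasi-likelihood interaction contrast, rosea minus prostrata), in 11 cases. From 7.5 mm to index 0.3 the log2 difference was -1.11 for SDD1, -1.46 for TMM, -1.85 for EPF1, -1.92 for MUTE and -1.48 for SPCH, with adjusted p-values of 0.00194, 0.00764, 7.19e-05, 0.00551 and 0.0115. From 1 mm to index 0.8 it was -1.41 for SDD1, -2.67 for TMM, -3.05 for EPF1, -3.94 for MUTE and -1.06 for FAMA, with adjusted p-values of 0.00244, 0.000524, 8.30e-06, 0.000781 and 2.73e-05. For EPF2 in that contrast the adjusted p was 0.00133, and no fold is given because 1 rosea group had 0 counts. All 11 were lower in rosea.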

How the results depend on the processing

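Of 63 calls, 44 held in every setting run and 19 were lost in at least 1, and none reversed. All 63 held with DESeq2, without the low-count filter, and without both close prostrata 15 mm libraries, and 54 held with library totals. In fits of 1 species, the calls between leaf parts numbered 3 against 5 through the loss of SPCH in rosea at index 0.8 (adjusted p = 0.0935) and EPF2 in rosea over both indices (adjusted p = 0.0515), and the cause was not tested. Without each library in turn, calls ran from 25 to 28 between species, 19 to 23 with age, 2 to 10 between leaf parts, 10 to 13 in the interactions, and 0 to 0 between leaves 9 and 10. The 2 came without rosea 13 mm bottom replicate 2, the 10 without replicate 3. The pairing of replicate numbers was checked on bottom and top libraries of the same index. In prostrata 4 of 6 same-numbered pairs correlated over 0.1 (median 0.26, against -0.15 for different numbers), all 3 at 18 mm among them. In rosea it was 1 of 6 (median -0.04). Of the 12 bottom libraries, 5 correlated best with their own number. With the replicate block and leaf 9 left out, calls numbered 24 between species, 21 with age, 4 between leaf parts and 10 in the interactions, against 25, 21, 5 and 11 without the block on the same contrasts with leaf 9 in the fit. The blocked fit lost 4 calls and no others: SPCH between leaf parts in rosea at index 0.8 (adjusted p = 0.0507), EPF2 between species in the bottom part at index 0.3 (-1.12, adjusted p = 0.202), EPF2 in rosea from 7.5 mm to index 0.3 (-1.50, adjusted p = 0.0547), and SDD1 in the interaction for that step (-0.88, adjusted p = 0.0676), which was also lost without leaf 9 and without the block. In prostrata at 18 mm SPCH kept its call between parts (-1.73, adjusted p = 0.0468). The fit without leaf 9 and without the block, with 9 interaction calls, was chosen after seeing the data. Counts under about 20 per library limit EPF2, and MUTE in rosea.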
